A study of Danio rerio with 18 samples.

Results

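Enhancer regions of the adult zebrafish testis were set against those of the heart at 1 year. The comparison took every super-enhancer and typical enhancer deposited for these organs, 10015 regions in the testis and 14212 in the heart. Together these are 24227 of the 66306 regions in the series. Both organs came from wild-type male fish of the AB strain. The testis set rests on 2 H3K27ac libraries and 2 input libraries from fish aged 10 months, each replicate pooling 8 testes, with chromatin sheared to 175 bp. The set for the heart at 1 year rests on 2 H3K27ac and 2 input libraries, each pooling 20 hearts, with chromatin sheared to 200 bp. A second heart set, from fish aged 10 months and sheared to 175 bp like the testis, has 1 library of each kind, also from 20 hearts, and served as a check. Tissue, age and fragment size all differ between the testis and the heart at 1 year and cannot be told apart from that pair alone.

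Acetylation of lysine 27 on histone H3 (H3K27ac) is laid down at active enhancers and promoters, and chromatin immunoprecipitation followed by sequencing (ChIP-seq) maps where it lies. Enhancers are stretches of DNA that transcription factors bind to raise the activity of genes nearby, and the set in use differs from one cell type to another. Super-enhancers are long clusters of enhancers with a high summed signal, often found near genes that define a cell type, and typical enhancers are the rest. The testis holds germ cells at all stages from stem cell to sperm beside the somatic cells that support them. The heart is built of cardiac muscle with endothelial, epicardial and blood cells. In whole organs, fewer cells of a type and less acetylation per cell cannot be told apart.

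A region was called shared when it overlapped a region of the other list by at least 50% of the shorter of both, and private otherwise. Each tissue and age has 1 list of each class and no value per replicate, so no test between samples could be made. The exact Clopper-Pearson 95% intervals below cover counting over regions and not the difference between fish. The lists name no genes and are in coordinates of the Zv9 build, for which no annotation was used here, so loci are given by position and the tissue labels were not checked against marker genes.

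A majority of testis regions lay at a heart enhancer, and most heart regions had no counterpart in the testis. Of the 10015 testis regions, 5639 were shared with the heart at 1 year (56.3%, 95% interval 55.3 to 57.3) and 43.7% were private. Of the 14212 heart regions, 5080 were shared with the testis (35.7%, 34.96 to 36.5) and 64.3% were private. The lists differ in extent. Testis regions covered 60.5 Mb, or 4.46% of the summed chromosome ends, against 212.8 Mb or 15.7% for the heart at 1 year. The base pairs found in both came to 30.1 Mb, which is 49.7% of the testis list and 14.1% of the heart list.

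In most matches 1 region lay inside the other. For 78.9% of the shared testis regions the shorter partner was fully contained in the longer. When at least 50% of both regions was required, the shared percentage fell to 16.4% of testis regions and 11.6% of heart regions. Of the shared testis regions, 4425 formed pairs in which neither partner matched a further region. In these pairs the median length was 3.40 kb in the testis and 8.40 kb in the heart. The testis region was the longer in 1415 pairs (32.0%), and both were of equal length in 245. Where both partners were a single locus, in 1713 pairs, the median lengths were 2.40 kb in the testis and 2.0 kb in the heart and the median ratio was 1.00. The testis region was the longer in 850 of these pairs (49.6%), and the rest include pairs of equal length.

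The shared percentage was higher for super-enhancers than for typical enhancers in both lists, and the intervals did not overlap. In the testis 451 of 581 super-enhancers (77.6%, 74.0 to 81.0) and 5188 of 9434 typical enhancers (55.0%, 54.0 to 56.0) were shared. In the heart at 1 year the shares were 670 of 850 super-enhancers (78.8%, 75.9 to 81.5) and 4410 of 13362 typical enhancers (33.0%, 32.2 to 33.8). Super-enhancers were also the longer class, with medians of 17.2 kb against 3.40 kb in the testis and 75.5 kb against 3.80 kb in the heart.

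Most shared super-enhancers belonged to the typical class in the other tissue. A heart super-enhancer was met by 134 testis super-enhancers (23.1%, 19.7 to 26.7), only a typical enhancer by 317 (54.6%), and 130 (22.4%) were private. Of the heart super-enhancers, 132 (15.5%, 13.2 to 18.1) were super-enhancers in the testis, 538 (63.3%) were typical enhancers there and 180 (21.2%) were private. When at least 50% of both regions was required, 4.30% of testis and 2.94% of heart super-enhancers matched a super-enhancer. In the testis 992 typical enhancers (10.5%) lay at a heart super-enhancer, and in the heart 369 (2.76%) lay at a testis super-enhancer.

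**Figure D1:**
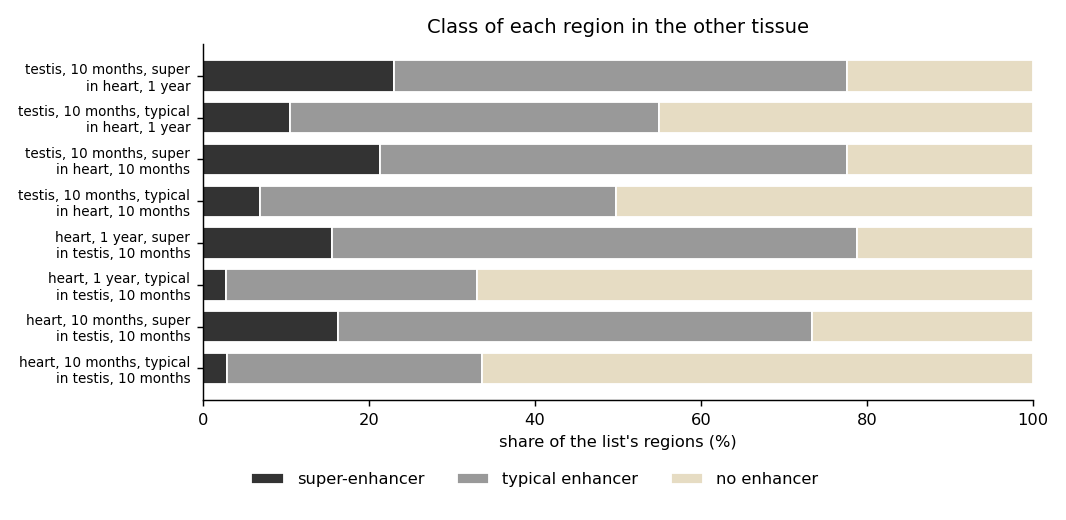
The bars show, for each class of each list, the share of regions (percent, x axis) that matched a super-enhancer, only a typical enhancer or no enhancer in the list named on the second line of the label. Private regions made up 22.4% of testis super-enhancers and 45.0% of testis typical enhancers against the heart at 1 year, and 21.2% and 67.0% of the heart classes against the testis.

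The class of many regions of the testis and of the heart at 10 months is uncertain. In the lists from fish aged 10 months, regions that carry the same name also carry the same signal and the same class, whatever their length. A signal was taken as the region's own when, multiplied by 10000, it could be divided by the region length without remainder. This held for 422 of 581 testis super-enhancers (72.6%) and 2501 of 9434 typical enhancers (26.5%), and for all regions of the heart at 1 year. The testis typical enhancers carry only 1525 names, with 1 signal each. Some of the 2501 therefore hold a signal that fits their length but belongs to another region of that name. The count of own signals is an upper limit. Among the 422 testis super-enhancers with their own signal, 106 (25.1%) were super-enhancers in the heart, 239 (56.6%) typical enhancers and 77 (18.2%) private. Among the 159 others 53 were private (33.3%). With own-signal regions alone, which leaves 2923 testis regions, 12.2% of heart regions were shared. In the heart at 10 months the rule held for 593 of 749 super-enhancers (79.2%) and 3369 of 13053 typical enhancers (25.8%). Classes from that list are uncertain too, also where they are used below to pick regions of the heart at 1 year.

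A heart super-enhancer was often met by several testis regions that together covered little of it. Of the 850 heart super-enhancers, 309 (36.4%) matched 2 or more testis regions, compared with 183 (1.37%) of the heart typical enhancers. Testis bases covered a median of 8.62% of the 538 heart super-enhancers that were typical enhancers in the testis. They covered a median of 35.1% of the 132 that were super-enhancers in both. Testis bases made up more than 50% of 63 heart super-enhancers (7.41%). The most testis regions at 1 heart region was 6, found at 2 loci. On chr5:32409401-32601599 (192 kb, 18 loci) the 6 testis regions were 2.40 to 32.2 kb long and summed to 39.1% of the length of the heart super-enhancer. On chr23:28019001-28262799 (244 kb, 33 loci) they were 2.80 to 4.20 kb long and summed to 8.78%. None of these testis regions was a super-enhancer.

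The longest stretches in a super-enhancer of both tissues were found on chromosomes 1, 7, 25, 15, 3, 5, 16, 11, 4 and 20. The first was the testis region at chr1:46031201-46102999 (71.8 kb, 6 loci). It lay fully inside the heart region from 46026001 to 46130199 (104 kb, 8 loci) and was a super-enhancer in all 5 sets. The testis region at chr7:36157201-36237199 (80.0 kb, 7 loci) had 63.6 kb in common with the heart region from 36079801 to 36220799 (141 kb, 16 loci) and was only a typical enhancer in the brain and the intestine. At 2 of the 10 loci the heart region was contained in the testis region almost end to end. On chromosome 3 the testis region ran from 39650001 to 39697399 (47.4 kb) and the heart region from 39650001 to 39696999 (47.0 kb), each of 6 loci. On chromosome 16 the testis region ran from 40187201 to 40241199 (54.0 kb, 7 loci) and the heart region from 40191201 to 40236199 (45.0 kb, 5 loci). At the other 8 loci the testis region took up 30.8% to 68.9% of the heart region. In the heart at 10 months 9 of the 10 testis regions met a super-enhancer. That at chr5:26502401-26556999 (54.6 kb) met only typical enhancers there, several separate regions along its length. In the heart at 1 year the same stretch lay in a single joined region.

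**Figure D2:**
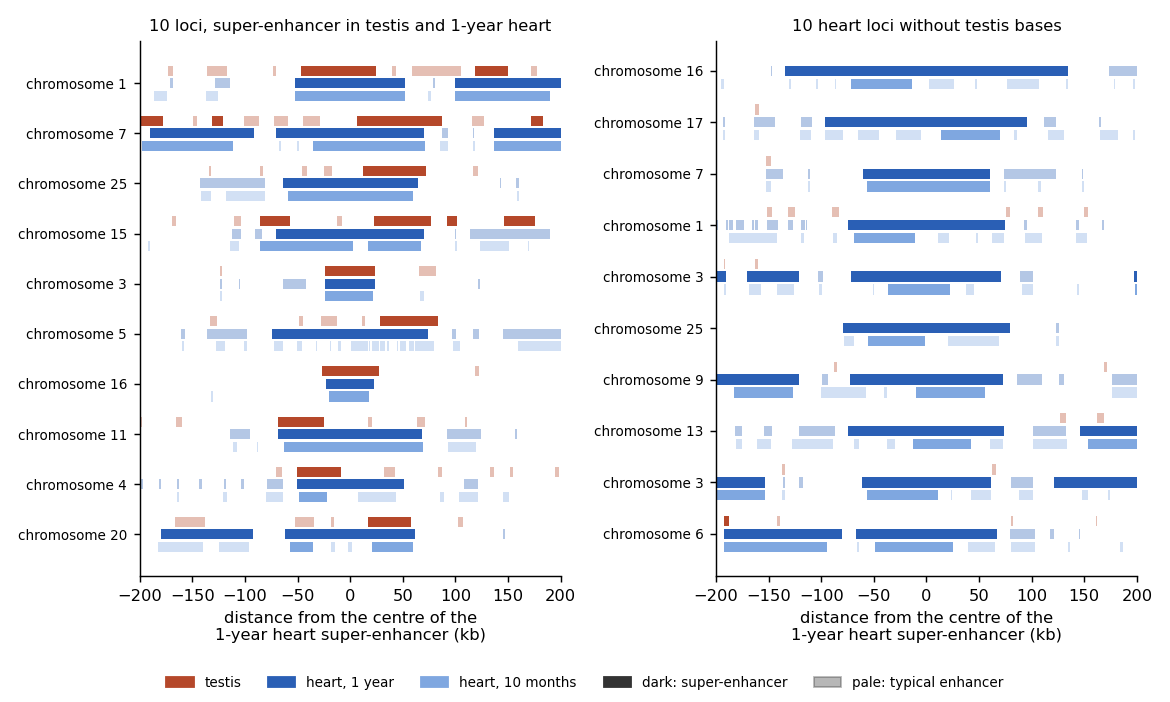
Each row is a locus, with regions drawn to scale by distance in kb from the centre of the 1-year heart super-enhancer, testis above, heart at 1 year in the middle and heart at 10 months below. Dark bars are super-enhancers and pale bars typical enhancers. On the left, the 10 pairs with the longest common stretch show testis regions of 41.4 to 80.0 kb inside or across heart regions of 45.0 to 148 kb. On the right, 10 heart super-enhancers of 120 to 269 kb contain no testis bases, and regions of the heart at 10 months lie along each of them.

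Testis super-enhancers that matched only typical enhancers in both heart lists numbered 257 (44.2% of the class), of which 194 had their own signal. Of these 194 the highest signal was at chr12:28583201-28664799 (81.6 kb, 7 loci), a super-enhancer in the intestine. It was followed by chr1:47535201-47601799 (66.6 kb, 5 loci), chr2:43706401-43763799 (57.4 kb, 5 loci) and chr10:36186001-36246199 (60.2 kb, 8 loci). The last of the 5, at chr7:43851401-43905999 (54.6 kb, 7 loci), was a super-enhancer in the brain and had no enhancer in the intestine. All 5 had an enhancer in the brain and 4 had one in the intestine, against 76.1% and 88.0% of all shared testis super-enhancers.

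In the other direction, 338 heart super-enhancers (39.8%) were super-enhancers at both ages and matched only typical enhancers in the testis. The 5 with the highest signal were 194 to 326 kb long, and all were super-enhancers in the intestine, against 66.4% of shared heart super-enhancers. Shared heart super-enhancers had a median length of 77.5 kb, and 65.8% were super-enhancers at 10 months. The comparison is thus not matched for length, signal or class at 10 months. The 5 lay at chr22:32735001-33060999, chr12:9351601-9630199, chr7:28815201-29008799, chr12:38796801-39073599 and chr18:19278201-19506599. Each held 2 to 4 testis regions, which covered 2.74% to 13.0% of its length.

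Most private testis regions were private against the heart at 10 months too. Of the 4376 regions without a match in the heart at 1 year, 3833 (87.6%, 86.6 to 88.6) had none in the heart at 10 months, where 48.6% of all testis regions had none. By class these were 90 of 130 super-enhancers (69.2%, 60.5 to 77.0) and 3743 of 4246 typical enhancers (88.2%, 87.1 to 89.1). The 40 private super-enhancers that did meet a region of the heart at 10 months met super-enhancers in 7 cases and typical enhancers in 33. Against each heart list 130 testis super-enhancers were private, and 90 of them were the same regions. The testis shared 56.3% of its regions with the heart at 1 year and 51.4% with the heart at 10 months, lists that cover 212.8 Mb at 1 year and 132.7 Mb at 10 months.

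Private heart regions differed by class in the younger heart. Of the 9132 regions of the heart at 1 year without a match in the testis, 5296 (58.0%, 57.0 to 59.0) matched a region of the heart at 10 months. Other rules also change which regions are private. With at least 50% of both regions required 12567 were private, of which 31.2% matched. With own-signal regions alone 12474 were private, of which 20.3% matched. Of the heart super-enhancers nearly all were present at 10 months, 179 of the 180 private and all 670 shared ones. They differed in class there, since 76 private (42.2%, 34.9 to 49.8) and 441 shared ones (65.8%, 62.1 to 69.4) met a super-enhancer at 10 months. Class at 10 months is uncertain, as 20.8% of super-enhancers and 74.2% of typical enhancers there lacked their own signal. Of the typical enhancers of the heart at 1 year 5117 of 8952 private (57.2%, 56.1 to 58.2) and 3833 of 4410 shared ones (86.9%, 85.9 to 87.9) were present. The private typical enhancers that were present had a median length of 6.0 kb and were a single locus in 49.9%. The 3835 that were absent had a median of 2.0 kb and were a single locus in 80.3%. Private regions of the heart at 10 months made up 64.2% of that list against the testis, close to the 64.3% of the heart at 1 year.

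In the other organs private regions, over both classes together, were again found in lower percentages than shared ones. Of the private testis regions, 1005 (23.0%) had an enhancer in the brain and 796 (18.2%) in the intestine at 1 year, against 64.1% and 82.0% of the shared testis regions. The heart at 10 months, the brain and the intestine are the other 3 lists. In none of them was there an enhancer for 49 of the 130 private super-enhancers (37.7%) and 2540 of the 4246 private typical enhancers (59.8%). Among shared ones these were 10 of 451 (2.22%) and 321 of 5188 (6.19%), and over the whole testis list 10.2% of super-enhancers and 30.3% of typical enhancers. Of the private heart regions, 3337 (36.5%) had an enhancer in the brain and 5125 (56.1%) in the intestine, against 71.8% and 86.9% of the shared heart regions. Among heart super-enhancers the intestine values were close, 98.9% of private and 99.1% of shared ones. In the brain they were 77.8% of private and 89.0% of shared ones. Class differed in the intestine too, where 42.2% of private (34.9 to 49.8) and 66.4% of shared ones (62.7 to 70.0) met a super-enhancer. These values are close to those for the heart at 10 months, so the difference in class was not particular to the heart. In the brain 13.9% of private and 22.4% of shared ones met a super-enhancer. All 850 heart super-enhancers, private and shared, had an enhancer in at least 1 of the other 3 lists. The heart at 10 months is 1 of these lists and alone had an enhancer for 849 of the 850. Age and fragment size are common to the intestine and the older heart, so organ and preparation cannot be told apart in these values.

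**Figure D3:**
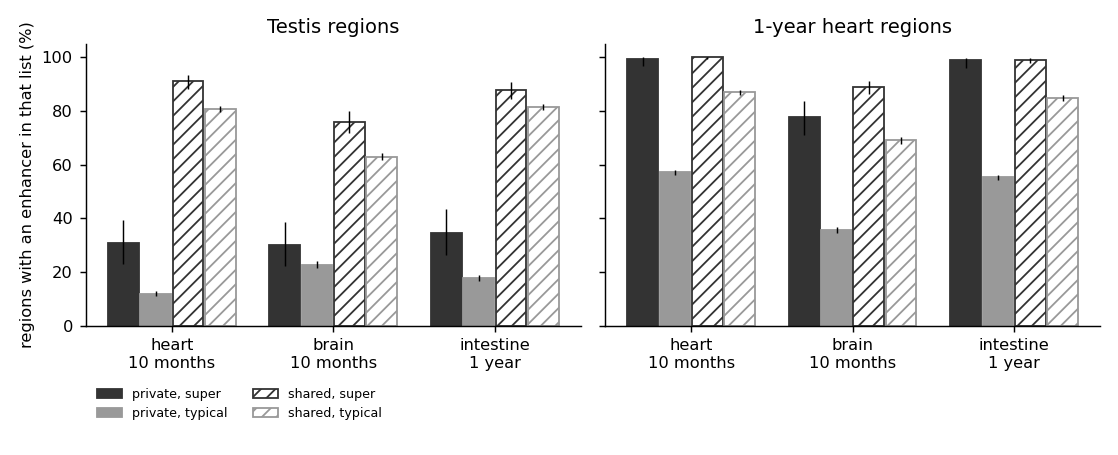
Bars give the percentage of testis regions (left) and 1-year heart regions (right) that had an enhancer in each of 3 further lists, for private (filled) and shared (hatched) super-enhancers (dark) and typical enhancers (grey), with exact 95% intervals over regions. Private testis typical enhancers were found in the heart at 10 months in 11.8%, against 80.9% of shared ones. In the heart 99.4% of private and all shared super-enhancers were found there.

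A stricter set had no base pair in the other tissue. In the testis 61 super-enhancers (10.5%) and 3515 typical enhancers (37.3%) shared no base with either heart list, and 31 of these super-enhancers had their own signal. The highest signal among the 31 was at chr5:26210001-26241199 (31.2 kb, 2 loci), 26.2 kb from the nearest region of the heart at 1 year and without an enhancer in the brain or intestine. Next came chr12:37220401-37247399 (27 kb, 4 loci), which was a typical enhancer in the brain and the intestine. The regions chr14:37634601-37658199 (23.6 kb), chr6:29035201-29060999 (25.8 kb) and chr15:1809201-1829599 (20.4 kb) had no enhancer in any other list. The same held for chr10:91801-108399 (16.6 kb), chr17:24647401-24663799 (16.4 kb) and chr19:32820601-32833199 (12.6 kb). The remaining 2 of the 10 were at chr19:44340601-44365399 (24.8 kb), a typical enhancer in the brain, and at chr23:20397401-20415199 (17.8 kb), a typical enhancer in the intestine. All 10 lay within 38.4 kb of a region of the heart at 1 year.

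In the heart at 1 year 164 super-enhancers contained no testis base. Bases in the heart at 10 months were found for 163 of them (19.2% of the class), and likewise for 5059 typical enhancers (37.9%). A further condition, not set for the testis, was a super-enhancer at 10 months, which 66 met (7.76%). The highest signal of the 66 was at chr16:46736001-47004599 (269 kb, 45 loci). It lay 115 kb from the nearest testis region, was a super-enhancer in the brain and had no enhancer in the intestine. Super-enhancers at chr17:37858001-38049799 (192 kb), chr7:70432801-70553199 (120 kb), chr1:48006801-48155399 (149 kb) and chr3:55748401-55890799 (142 kb) were super-enhancers in the intestine as well. So was that at chr13:30571001-30719399 (148 kb). The other 4 were typical enhancers in brain and intestine. They lay at chr25:30489001-30647199 (158 kb), where the nearest testis region was 306 kb away, chr9:31867001-32012199 (145 kb), chr3:41795601-41918399 (123 kb) and chr6:20726401-20860199 (134 kb). All 10 had an enhancer in the brain, as did 77.8% of all private heart super-enhancers, whose median length was 69.1 kb.

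Long typical enhancers were also found without a counterpart. The longest in the testis with no base in either heart list was at chr15:21270001-21316599 (46.6 kb, 7 loci), followed by chr7:22680601-22712999 (32.4 kb) and chr6:15806001-15836199 (30.2 kb). Then came chr5:23284801-23314799 and chr23:36182601-36212599 (30.0 kb each). Those on chromosomes 7 and 5 lacked their own signal. In the heart at 1 year the longest without a testis base and with bases in the heart at 10 months was at chr13:34006001-34119999 (114 kb, 15 loci). It was followed by chr7:45277601-45383599 (106 kb, 11 loci), chr7:14890601-14984399 (93.8 kb), chr10:26965201-27058799 (93.6 kb) and chr5:22480601-22566399 (85.8 kb). All 5 were typical enhancers in the intestine and 4 were in the brain, against 48.9% and 30.6% of all private heart typical enhancers. The median length of that class was 3.20 kb. The 5 were picked as the longest, so their matches cannot be set apart from their length.

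Private regions had shorter medians than shared ones except among testis typical enhancers. Private testis super-enhancers had a median of 13.6 kb against 19 kb for shared ones, and private heart super-enhancers 69.1 kb against 77.5 kb. Private typical enhancers had a median of 3.40 kb against 3.20 kb in the testis and 3.20 kb against 6.80 kb in the heart. When at least 50% of both regions was required, the order in the heart turned round, with private medians 41.5 kb longer for super-enhancers and 1.20 kb longer for typical enhancers. In the heart the private share was lower in each longer bin, being 78.5% up to 1 kb, 49.7% from 20 to 50 kb and 27.1% above 50 kb. In the testis it was 41.1% up to 1 kb and 38.9% from 1 to 2 kb, highest at 50.8% (49.4 to 52.3) from 2 to 5 kb, and 23.3% from 20 to 50 kb. None of the 35 testis regions above 50 kb was private, which allows a share of up to 10.0%. The bin from 2 to 5 kb holds 4652 testis regions, and it was also the highest against the heart at 10 months, with 56.6%. A single locus made up 31.5% of private against 16.2% of shared super-enhancers in the testis, and 88.0% against 79.5% of typical enhancers. In the heart the values were 3.33% of private against 3.28% of shared super-enhancers, and 62.9% against 49.5% of typical enhancers.

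**Figure D4:**
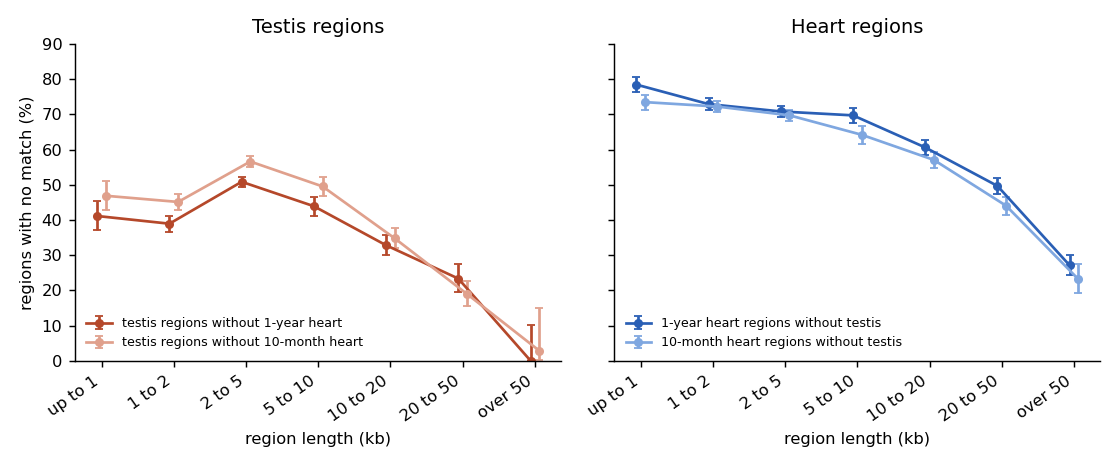
The share of regions without a match (percent, y axis) is plotted by region length (kb, x axis) for testis regions (left) and heart regions (right), with exact 95% intervals over regions. Testis regions of 2 to 5 kb had the highest private share against both heart lists, 50.8% and 56.6%, while heart regions had lower shares at each greater length.

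Median signal per base pair, compared only within a list and over regions with their own signal, differed little between private and shared regions under the overlap rule used here. For testis typical enhancers the values include signals copied between regions of the same name and a fitting length. They cannot show how far private and shared regions of that class differ. When at least 50% of both regions was required, the private minus shared median in the heart was -0.210 per bp for super-enhancers and -0.152 for typical enhancers, against -0.0366 and -0.0301 as matched here. Under that stricter rule private heart regions also had longer medians, by 41.5 kb and 1.20 kb, so signal per bp and length cannot be told apart there. In the testis the median was 0.426 units per bp in 77 private and 0.392 in 345 shared super-enhancers, and 0.399 in 1078 private and 0.414 in 1423 shared typical enhancers. In the heart it was 0.449 in private and 0.486 in shared super-enhancers, and 0.471 and 0.501 in typical enhancers. Heart super-enhancers that were super-enhancers in the testis too had a median of 0.534. Each list was also cut into 5 bins of equal size by signal per bp. In the top bin of the heart 50.2% (48.3 to 52.0) were private, against 65.8% to 70.5% in the other bins. In the testis 37.8% (33.9 to 41.9) of the top bin were private, against 35.7% to 42.5% in the others. Median lengths in the top bins were 1.20 kb in the testis and 1.40 kb in the heart.

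The regions with the highest signal per bp, chosen after their values were seen, differed between the lists. Of the 10 testis regions with the highest signal per bp, 9 were private against the heart at 1 year, 7 were private against the heart at 10 months, and none had an enhancer in the brain or intestine. The first was a typical enhancer of 1.40 kb at chr19:13956001-13957399, with 6.045 units per bp against a median of 0.399 in private typical enhancers of the testis. It was followed by chr4:36409601-36410799 (1.20 kb, 3.53 units per bp), chr17:43027401-43033199 (5.80 kb, 3.17) and chr1:60120801-60122599 (1.80 kb, 2.27). The region on chromosome 4 lay 1511 kb from the nearest region of the heart at 1 year. The only 1 of the 10 that was shared, at chr4:61293801-61299999 (6.20 kb, 1.54 units per bp), was a super-enhancer in the heart at 10 months. Among the 100 testis regions with the highest values 48 were private (48.0%, 37.9 to 58.2), against 39.5% of all testis regions with their own signal, which lies within that interval. Of the 10 highest heart regions none was private, and of the 100 highest 10 were (10.0%, 4.90 to 17.6), against 64.3% of all heart regions. The highest heart region was a super-enhancer of a single locus at chr5:3724001-3734199 (10.2 kb, 3.24 units per bp), a typical enhancer in the testis. The testis ranking covers only the 29.2% of the list that passed the own-signal rule, and some of these signals are copies from another region of the same name.

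Many private super-enhancers of the testis lay near or partly in a heart region. The median distance from a private testis super-enhancer to the nearest region of the heart at 1 year was 4.20 kb, and 75 of 130 (57.7%) lay within 10 kb. These values include 44 that share bases with a heart region, under 50% of the shorter, and count as distance 0. For the 86 with no shared base the median was 18.7 kb, and 31 (36.0%) lay within 10 kb. For all private typical enhancers the median was 24.8 kb, with 1111 of 4246 (26.2%) within 10 kb and 518 (12.2%) farther than 100 kb. Private heart regions lay at medians of 46.7 kb for super-enhancers and 43.0 kb for typical enhancers from the nearest testis region. The testis list covers fewer base pairs. Over both classes, the testis region closest to the 50% limit from below, a typical enhancer at chr10:45210201-45231799 (21.6 kb), shared 49.998%, and the closest above, a typical enhancer at chr11:38134601-38147599 (13.0 kb), shared 50.8%. The most remote private testis region was at chr4:43093801-43095399 (1.60 kb), 2976 kb from any region of the heart at 1 year.

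Private regions were spread over all 25 chromosomes. The private share of testis regions ran from 38.4% on chromosome 22, 40.0% on chromosome 3 and 40.3% on chromosome 11 to 45.8% on chromosome 6, 47.0% on chromosome 1 and 50.9% (46.2 to 55.5) on chromosome 19. Of those named, only the interval of chromosome 19 excluded the 43.7% of the whole testis list. It was picked as the highest of 25 chromosomes, and the intervals are not adjusted for that choice. Against the heart at 10 months chromosome 19 was again the highest, with 52.6% (47.9 to 57.2). That interval includes the 48.6% of the whole testis list, and chromosomes 24 (52.3%), 18 (52.2%) and 25 (52.2%) were close. The private share of heart regions ran from 58.7% on chromosome 25, 60.7% on chromosome 24 and 60.8% on chromosome 23 to 67.4% on chromosome 12, 69.9% on chromosome 13 and 73.7% (70.1 to 77.1) on chromosome 9. In the heart at 10 months the highest were also chromosomes 9 and 13, with 74.2% and 69.4%. The order depended on the overlap rule. With at least 50% of both regions required, chromosome 18 was the highest in the testis and in the heart at 1 year.

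Chromosomes 9, 13 and 19 also lay at the ends of the range in testis regions per region of the heart at 1 year. Chromosome 9 had 311 testis regions against 639 of the heart at 1 year, or 0.487 testis regions for each heart region, and chromosome 13 had 367 against 652, or 0.563. The median over chromosomes was 0.721, and chromosome 19, with 464 against 508, had the highest value of 0.913. Against the heart at 10 months the ratio was again lowest on chromosome 9 (0.524), while chromosome 25 had the highest (0.932), above chromosome 19 (0.866). Chromosome 9 held 5.34 testis regions per Mb against a median of 7.58 over chromosomes, and chromosome 19 held 9.23, the most of any. Chromosome 4 held the fewest per Mb, both of the testis (5.15) and of the heart at 1 year (7.15). Chromosome 13 held 6.79 testis regions per Mb and the most of the heart at 1 year, 12.1 per Mb. Chromosome 19 had 38 testis super-enhancers, 10 of them private, against 36 heart super-enhancers. In the whole testis list 130 of 581 super-enhancers (22.4%) were private. Chromosome 6 had 25 testis super-enhancers, also with 10 private, and chromosome 7 had 48, with 5 private. Chromosome 8 had 11 testis super-enhancers, the fewest, against 34 in the heart.

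**Figure D5:**
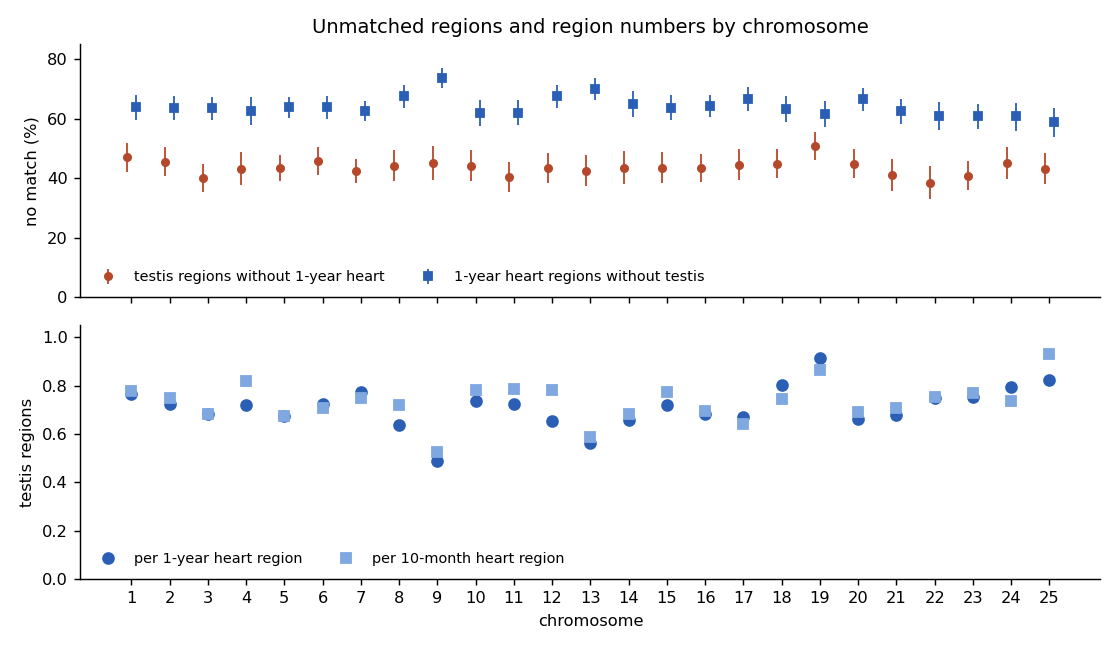
The upper panel gives the percentage of testis regions and of 1-year heart regions without a match on each chromosome, with exact 95% intervals over regions, and the lower panel the number of testis regions per region of either heart list. Chromosome 9 has the highest private share of heart regions (73.7%) and the lowest ratio (0.487), and chromosome 19 the highest private share of testis regions (50.9%) and the highest ratio to the heart at 1 year (0.913).

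Some stretches held many regions of 1 tissue in a row. They were chosen after the data were seen, as the longest runs of regions of a list within which no region of the other list starts, so a run can still hold shared regions. In the testis the longest was a run of 13 typical enhancers at chr13:45690201-46149199, 2.60 to 12.0 kb long, all private, of which 2 matched a region of the heart at 10 months. Its span held 3 regions of the heart at 10 months, 2 of the brain and 7 of the intestine. A run of 10 followed at chr23:33055201-33551599, of which 6 were private and 3 matched a region of the heart at 10 months. A run of 8 at chr12:7401801-7868999, with lengths of 2.60 to 8.40 kb, was private throughout and had no region of the heart at 10 months, the brain or the intestine within its span. Runs of 8, also private throughout, lay at chr1:9956001-10967599 and chr5:43928401-44302399. Each of these spans held 1 region of the heart at 10 months. That on chromosome 1 also held 4 regions of the brain and 6 of the intestine, and that on chromosome 5 held none. In the heart at 1 year the longest was a run of 25 typical enhancers at chr15:20286601-20475599, of which 24 were private and 19 matched a region of the heart at 10 months. Of the 25, 24 carry bare numbers as names, taken here as regions that were not joined. The run at chr3:24472801-24751799 had 22, of which 21 were private and 20 had such names. The testis runs named above held no such names, so the numbers of regions per run are not in like units. A further run lay at chr10:3729401-4991799, with 20 regions over 1262 kb, 3 of them super-enhancers, of which 19 were private and 13 matched the heart at 10 months. On chr9:44144801-45158599 there were 19, all private, of which 9 matched.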

How the data were processed

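H3K27ac ChIP-seq was measured in whole organs, and the deposited data are 10 region lists, 2 for each of 5 sets. Named without roles in the submitters' processing notes are SICER 1.1, bedtools 2.24.0, Bowtie2 2.1.0, SAMtools 0.1.8 and CASAVA, with the Zv9 build. How loci were joined, super-enhancers set apart, input used and replicates combined is not given in the sources used here. The value deposited by the authors with each region is a signal, which the values of the 1-year lists show to be a mean per bp times the length. Its scaling is not stated, and signals of different lists were not compared. Depth is unknown, since the lists hold no read counts.

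Regions were matched by overlap within a chromosome. Lengths are end minus start, and positions are printed counted from 1. The chromosome length was taken as the last region end in any list. The number of loci comes from the region name, and a bare number was taken as 1 locus. Shares carry exact Clopper-Pearson 95% intervals, which cover counting only. Regions are named by rule. Private super-enhancers are the 10 of highest signal in the testis with their own signal and no base in either heart list, and the 10 of highest signal in the heart at 1 year that are also super-enhancers at 10 months and have no testis base. The other sets are the 10 pairs of super-enhancers with the most bases in common, the 5 of highest signal of each class change, the 5 longest typical enhancers without a base in the other tissue (for the heart, also found at 10 months), and the 3 highest and lowest chromosomes. The members, rules and lists were chosen with earlier results of these data known. Alternatives were other overlap rules, own signal only, the upper part of each list by signal, and the heart at 10 months. Matching was tested on 10015 simulated regions and gave the planted class for 100% of them. Each overlapped at most 1 simulated partner and only in part, so several partners and full containment were not tested. Python 3.11.15, numpy 2.4.6, pandas 2.3.3, scipy 1.17.1 and matplotlib 3.10.9 were used.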

Additional observations from a re-analysis of the deposited data

How the results depend on the processing

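Values that stayed within the 95% interval of the value as reported numbered 18, 35 lay outside it and 2 changed sign. Some intervals were very narrow, from 12.3% to 12.4% for the share of bases. For the length difference of testis typical enhancers the interval ran from 0.2 to 0.2 kb. Intervals of length and signal differences are of another kind than those on shares. Small changes can thus lie outside, and the count of 35 does not measure how large they are. Counting any overlap of 1 bp gave 59.6% of testis and 37.8% of heart regions as shared. Of the 8842 heart regions then private, 59.1% were present at 10 months. The private minus shared median length was then -6.70 kb for testis super-enhancers, 0 kb for testis typical and -4.20 kb for heart typical enhancers, and the signal difference of heart typical enhancers -0.0234 per bp. Requiring 50% of both regions gave shared percentages of 16.4% and 11.6% for testis and heart, and 4.30% and 2.94% for super-enhancers that are super-enhancers in both. Of the 8370 testis regions then private, 89.2% were also private against the heart at 10 months. Of the 12567 heart regions then private, 31.2% were present there. Length differences were 0.6 kb for testis typical enhancers and, with the opposite sign, 41.5 kb for heart super-enhancers and 1.20 kb for heart typical enhancers. Signal differences were -0.0537 per bp for testis typical, -0.210 for heart super-enhancers and -0.152 for heart typical enhancers. Private percentages by chromosome ran from 79.2% (chromosome 21) to 88.9% (chromosome 18) in the testis. In the heart they ran from 85.3% (chromosome 1) to 91.1% (chromosome 18).

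With own-signal regions alone, which by construction drops most typical enhancers of the 10-month lists, 60.5% of testis and 12.2% of heart regions were shared. Heart super-enhancers that matched super-enhancers were 12.4%. Private regions that held were 95.7% of 1155 in the testis, and those present were 20.3% of 12474 in the heart. The bases in both lists as a share of the bases in either were 6.67%, against 12.4% over all regions. The upper part of each list by signal held 5007 testis regions and 7106 regions of the heart at 1 year. With these the shared percentages were 44.8% and 28.6% for testis and heart, and the super-enhancer matches 15.9% and 10.8%. The private testis regions that held were 83.1% and the share of bases was 9.80%. Which testis regions rank in the upper part is uncertain, because 70.8% of the testis list failed the own-signal rule. The younger heart has the same limit, with 71.3% failing it. Against the heart at 10 months 51.4% of testis regions were shared and the share of bases was 15.1%. Apart from the constructions named, the cause was not tested. No paired analysis was possible because the lists hold no value per replicate, and for the same reason no replicate could be left out. Depth is unknown, so a region absent from a list may lie below its detection limit.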
